A study of Mus musculus with 12 samples.

Results

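The LIM-only genes Lmo1, Lmo2, Lmo3 and Lmo4 and the LIM domain-binding genes Ldb1 and Ldb2 were examined in RNA-seq libraries of mouse cerebral cortex. These 6 genes, of 51912 in each count file, were found by gene symbol. They were chosen by measured values of the genotype contrast, because Lmo3 was higher in the mutants while other markers of deep cortical layers were lower. The genotype difference of the 6 genes is therefore given as a description, with no test. All 6 passed the filter on low counts that left 10678 genes for testing.

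The study compared 6 Emx1-Cre Arid1a conditional mutants with 6 controls, all at embryonic day 15.5 and all labelled as batch 1. Arid1a belongs to BAF, a complex that uses ATP to move nucleosomes. Emx1-Cre is active in progenitors of the dorsal telencephalon, so cells that enter the cortex from elsewhere, such as interneurons, keep the gene. The genotype of the controls beyond that word is not given in the sources used here. Litter 1 supplied 2 mutants and 4 controls, and litter 2 supplied 4 mutants and 2 controls. Of the mutants 5 were female and 1 was male, and of the controls 2 were female and 4 were male. The labels give each library a litter and a sex but do not say that each came from a separate embryo, so p-values measure the spread between these libraries. Libraries are called by group and number, where the number only follows their order in the archive.

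LIM-only proteins consist of little more than a pair of zinc-binding LIM domains and do not bind DNA themselves. LDB proteins bind LIM domains and form dimers, and in this way they bring LIM-homeodomain factors, GATA factors or bHLH factors together on DNA. A LIM-only protein can act as a bridge in such a complex, or it can occupy LDB and so compete with a LIM-homeodomain factor. Lmo2 is best known from blood stem cells and T-cell leukaemia, Lmo1 and Lmo3 from neuroblastoma, and Lmo4 from the patterning of cortical areas.

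The LIM-only genes resemble one another in sequence, which matters for reads that are assigned to genes. The 4 lines give the same 72-base stretch of the coding sequences, from bases 67 to 138 of Lmo3, around the longest run that Lmo1 and Lmo3 share. Sequences are from GENCODE M21 (GRCm38), written 5′ to 3′, with capitals for bases that differ from Lmo3.
Lmo3: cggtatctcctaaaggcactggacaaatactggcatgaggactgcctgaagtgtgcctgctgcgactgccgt
Lmo1: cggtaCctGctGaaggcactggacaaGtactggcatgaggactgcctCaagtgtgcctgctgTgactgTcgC
Lmo2: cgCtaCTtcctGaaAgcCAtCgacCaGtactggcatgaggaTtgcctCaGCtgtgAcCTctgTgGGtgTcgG
Lmo4: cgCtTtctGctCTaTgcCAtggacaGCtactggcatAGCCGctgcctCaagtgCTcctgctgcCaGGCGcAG

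In this stretch Lmo1 differed from Lmo3 at 8 bases, Lmo2 at 22 and Lmo4 at 25. Over the whole aligned coding sequence Lmo1 and Lmo3 were the closest LIM-only pair, with 79.1% identical bases, and the other LIM-only pairs had 53.5 to 61.1%. Ldb1 and Ldb2 had 71.8%. The longest run without a mismatch, over all annotated transcripts, was 20 bases between Lmo1 and Lmo3 and 23 bases between Ldb1 and Ldb2. The read length is not given in the sources used here.

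Lmo3 lies on chromosome 6 (GRCm38, 138362918 to 138581968, minus strand) and spans 219051 bases, with annotated 5′ ends of coding transcripts spread from 138421452 to 138581968. Lmo1 lies on chromosome 7 (109138572 to 109175207, minus strand), Lmo2 on chromosome 2 (103957986 to 103981878, plus strand) and Lmo4 on chromosome 3 (144188530 to 144205220, minus strand). Ldb1 lies on chromosome 19 (46031570 to 46045214, minus strand) and Ldb2 on chromosome 5 (44472132 to 44799680, minus strand). Ldb1 shares 177 bases of exon with Pprc1 on the opposite strand, which had 805 counts over all libraries. Whether counting used the strand is not given in the sources used here, so reads in those bases cannot be told apart. The 3 antisense genes that overlap Lmo3 share no exon base with it and had 37, 13 and 2 counts. The gene with 2 counts extends beyond the 5′ end of Lmo3.

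Gene counts per library ran from 643197 to 3525121, and the 2 shallowest libraries, mutants 1 and 4, were both mutants. The targeted gene, Arid1a, stood at 396, 443 and 525 CPM (counts relative to the TMM-scaled library total; lowest, median and highest) in the mutants and at 464, 503 and 575 CPM in the controls. The mutants differed by -0.30 on the log2 scale (SE 0.0958, edgeR adjusted p = 0.277), and 3 of 6 mutants lay below all controls. The gene total does not show the loss of a floxed exon. Markers of cortical excitatory neurons summed to 1256 to 3383 CPM over the 12 libraries, and none of the 7 was at 0.

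Of the 4 LIM-only genes Lmo3 had the largest genotype difference. It stood at 155, 220 and 378 CPM in the mutants (lowest, median and highest) and at 102, 135 and 181 CPM in the controls. Of the 6 mutants, 4 lay above every control and all 6 lay above the control mean, while mutants 2 and 5 lay within the control range. The mutant mean of 234 ± 79.3 CPM was 1.67 times the control mean of 140 ± 30.4 CPM (SD, n = 6 each). With terms for litter and sex the log2 fold change was 0.93 (SE 0.219). At least 4 mutants lay above every control in 551 of 10678 genes (5.16%), a share given as background only, since the contrast chose the gene.

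**Figure D1:**
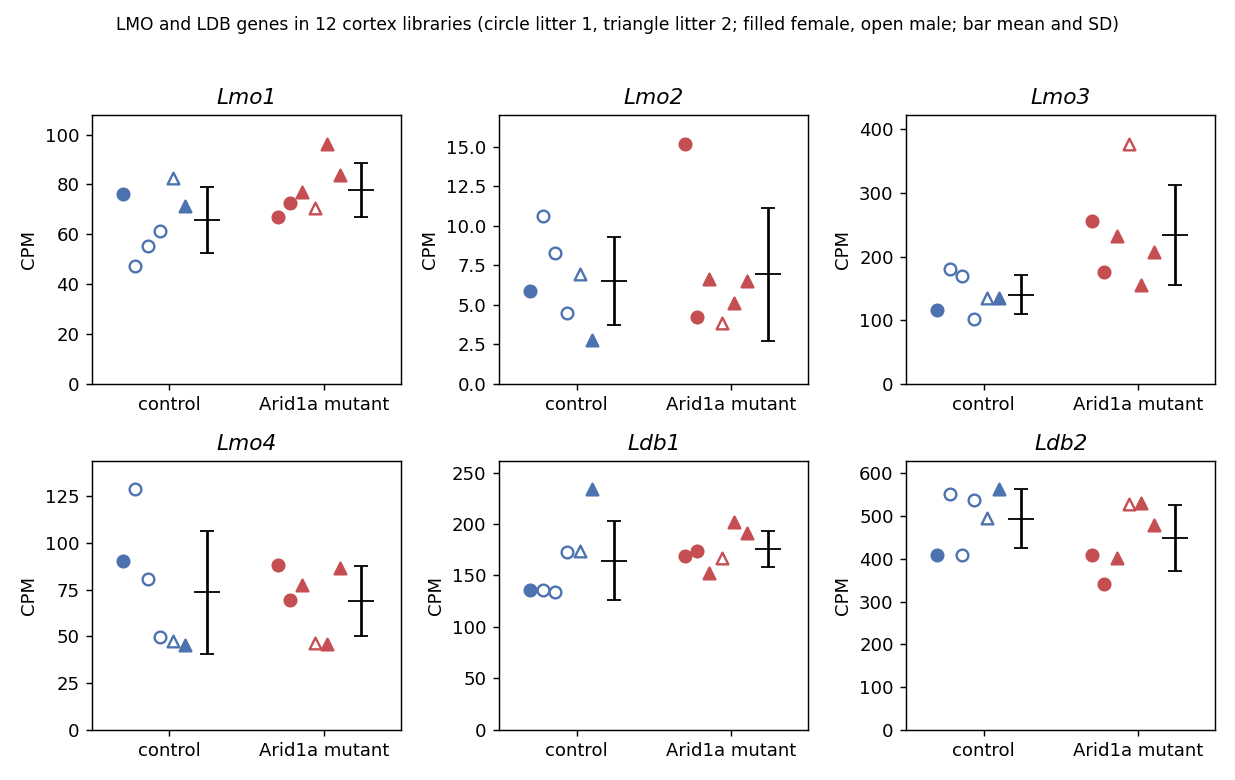
CPM of the 6 genes in each library (vertical axis, from 0), with controls in blue and Arid1a mutants in red. Circles are litter 1, triangles litter 2, filled symbols females and open symbols males, and the bars give mean and SD (n = 6 each). For Lmo3, 4 mutants lie above the highest control at 181 CPM.

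The ratio of Lmo3 means was above 1 in both litters. In litter 1 the 2 mutants had 257 and 176 CPM and the 4 controls had 116, 181, 170 and 102 CPM, a ratio of means of 1.52. In litter 2 the 4 mutants had 232, 378, 155 and 207 CPM and the 2 controls had 135 and 136 CPM, a ratio of 1.80. All 4 mutants of litter 2 lay above its 2 controls, whereas in litter 1 mutant 2 lay between the controls. The share of all genes with that order in litter 2 was not counted, and the genotype contrast chose Lmo3. The difference between the litters in the genotype effect was -0.08 on the log2 scale (SE 0.448, edgeR adjusted p = 0.991) in the fit with a sex term. Its sign was not stable: it was 0.22 with no sex term, where it had the direction of the 2 ratios, 0.22 without mutant 1 and -0.47 without control 5.

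Mutant 4, the only male mutant and the second shallowest library, had the highest Lmo3 level. Without it the log2 fold change was 0.71, and without both shallowest libraries it was 0.60 (SE 0.239). Among females alone the mean was 205 CPM in 5 mutants and 126 CPM in 2 controls, a ratio of 1.63. The sex difference of Lmo3, male minus female, was 0.48 (SE 0.207, edgeR adjusted p = 0.711) and did not pass. Without mutant 4 it was 0.21. Sex differed in 1 of 10678 genes (0.00937%). The filter asked for its cutoff in 6 libraries, so a gene read only in the 5 males could not pass it. With no filter 76 genes were called by sex, 43 of them higher in males.

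Lmo1, the closest relative of Lmo3, did not separate the groups. It stood at 66.9, 74.7 and 96.3 CPM in the mutants and at 47.3, 66.3 and 82.7 CPM in the controls, and 2 mutants lay above every control. All 6 mutants lay above the control mean, as they did for Lmo3, and how many of all genes did so was not counted. The ratio of means was 1.18, but with litter and sex as terms the log2 fold change was 0.04 (SE 0.136), and it was -0.17 without control 6. Levels were 80.3 ± 9.59 CPM in litter 2 and 63.2 ± 10.8 CPM in litter 1 (SD, n = 6 each). The litter difference of 0.29 on the log2 scale (SE 0.118) had an unadjusted p of 0.0227 and an edgeR adjusted p of 0.237.

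Lmo4 varied more between libraries than between genotypes. It stood at 45.8, 73.2 and 88.1 CPM in the mutants and at 45.1, 65.1 and 129 CPM in the controls, so the groups overlapped throughout. Its log2 fold change was 0.13 (SE 0.341). The mutant mean was lower than the control mean in litter 1, at a ratio of 0.901, and higher in litter 2, at a ratio of 1.38. In the fit with a sex term the genotype effect differed between litters by 0.70 on the log2 scale (SE 0.589, edgeR adjusted p = 0.861). Litter 1 had 84.4 ± 26.3 CPM and litter 2 had 58.0 ± 18.7 CPM (SD, n = 6 each). With terms for sex and genotype the litter difference was -0.61 on the log2 scale (SE 0.294, edgeR adjusted p = 0.361).

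Lmo2 was near the limit of detection. Each library held 3 to 24 counts of it, which gave 3.85, 5.82 and 15.2 CPM in the mutants and 2.76, 6.40 and 10.6 CPM in the controls. The log2 fold change was 0.52 (SE 0.432), and 3 of 6 mutants lay above the control mean. It was 0.15 without control 6 and 0.79 without mutant 4. The highest value, in mutant 1, rested on 10 counts in the shallowest library.

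The LDB genes had genotype differences nearer to 0 than that of Lmo3. Ldb2 stood at 342, 445 and 531 CPM in the mutants and at 409, 517 and 563 CPM in the controls, with 2 mutants below every control. Its log2 fold change was -0.16 (SE 0.123), and it was -0.05 without control 6. Ldb1 stood at 153, 171 and 202 CPM in the mutants and at 134, 155 and 234 CPM in the controls, and no mutant lay outside the control range. Its log2 fold change was -0.08 (SE 0.127), and it was 0.17 without control 6, the library with the highest Ldb1 level.

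No member passed the test for litter, for sex or for the difference between litters in the genotype effect. Litter was called in 140 of 10678 genes (1.31%) and the difference between litters in 0 genes (0%) with edgeR. For that difference 776 genes (7.27%) had an unadjusted p under 0.05, limma-voom called 0 genes and DESeq2 called 6. The adjusted p of the members for litter ran from 0.237 (Lmo1) to 0.956 (Lmo3). Ldb1 and Ldb2 were higher in litter 2 by 0.28 (SE 0.112, adjusted p = 0.239) and 0.26 (SE 0.109, adjusted p = 0.254), differences that did not pass.

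The variation that litter, sex and genotype left over was large for Lmo2, Lmo3 and Lmo4. The biological coefficient of variation, which is the relative spread between libraries beyond counting error, was 0.216 for Lmo3, 0.232 for Lmo2 and 0.299 for Lmo4. These values were higher than those of 87.8%, 90.2% and 95.4% of the genes tested. It was 0.119 for Lmo1, 0.137 for Ldb1 and 0.139 for Ldb2, beside a median of 0.132 over all genes tested.

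Levels were compared between genes per kilobase of exon. Whether reads in introns were counted is unknown, and if they were, this scale would depend on gene span. The members span 327549 bases (Ldb2), 219051 (Lmo3), 36636 (Lmo1), 23893 (Lmo2), 16691 (Lmo4) and 13645 (Ldb1). The effect of span was not tested, which limits every comparison between genes per kb. Ldb2 had the highest level, 141 ± 22.1 CPM per kb (SD, n = 12), and its lowest library (102) lay above the highest library of every other member (73.5, for Lmo3). Lmo1 (46.2 ± 8.50), Ldb1 (36.9 ± 6.35) and Lmo3 (36.4 ± 14.7) followed with overlapping ranges. Lmo4 (20.2 ± 7.29) came next, and its range of 12.8 to 36.4 overlapped that of Lmo3. Lmo2 (3.10 ± 1.57) was lowest, and its highest library (7.01) lay below the lowest of Lmo4.

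**Figure D2:**
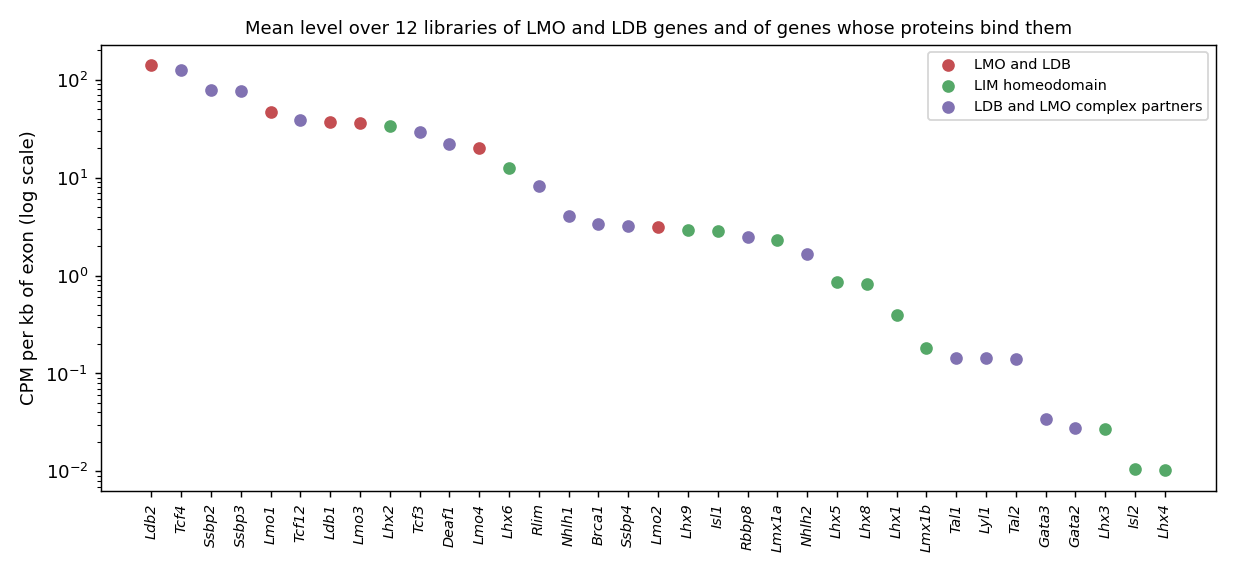
Mean level over the 12 libraries in CPM per kb of exon (vertical axis, log scale) of the LMO and LDB genes (red), LIM-homeodomain genes (green) and genes of complex partners (purple), ordered by level. Ldb2 has the highest level at 141, and Gata1, with 0 counts, is not drawn. The order may depend on gene span, which was not tested.

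The share of Lmo3 in the summed level of the 4 LIM-only genes, per kb, was 37.9 ± 9.30% for mutants and 29.1 ± 4.49% for controls (SD over 6 libraries each). The ranges, 28.1 to 54.9% and 22.6 to 34.7%, overlapped. Mutant 4 held the highest share of Lmo3 and the lowest share of Lmo4, 9.78%. Lmo1 took 42.9% in mutants and 46.0% in controls, Lmo4 took 16.6% and 21.8%, and Lmo2 took 2.68% and 3.14%. The 4 genes summed to 118 ± 11.6 CPM per kb in mutants and 93.4 ± 11.0 in controls. The ratio of the LMO sum to the LDB sum was 0.695 ± 0.0946 in mutants and 0.521 ± 0.116 in controls. These shares and ratios contain Lmo3 and so carry the difference by which the genes were picked. Their size also rests on the scale per kb, for which the effect of gene span was not tested.

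**Figure D3:**
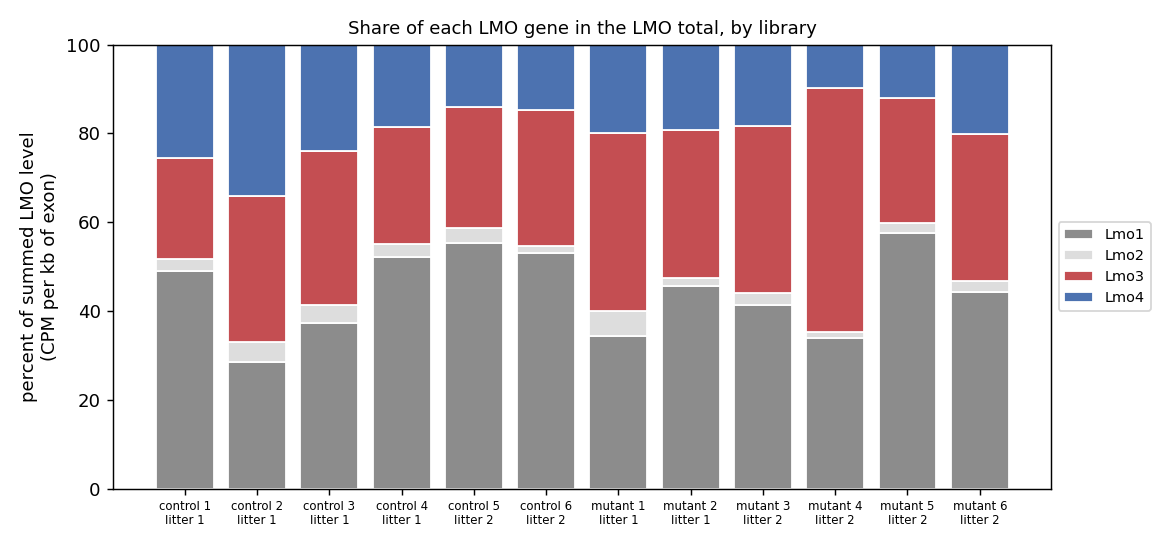
Share of each LIM-only gene in their summed CPM per kb (vertical axis, percent) in each of the 12 libraries, with group, number and litter along the horizontal axis. Lmo3 (red) holds 22.6 to 34.7% in controls and 28.1 to 54.9% in mutants. The size of the shares may depend on gene span, which was not tested.

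Among the 16 deep-layer markers, which the choice of members also used, 14 had a negative genotype difference and 2 a positive difference. Their median was -0.40, beside -0.00 over all genes tested, of which 49.9% were positive. In bulk cortex, fewer cells of a type and less RNA per cell cannot be told apart. Tle4, a corepressor of layer 6 neurons, had -0.81 (SE 0.121) and Fezf2, a factor that specifies subcerebral neurons, had -1.08 (SE 0.410). Sox5 had -0.36 (SE 0.158) and Tbr1, a layer 6 factor, had -0.17 (SE 0.110). Foxp2 had 0.00 (SE 0.296), and Bcl11b, a layer 5 factor also expressed in striatum, had 0.20 (SE 0.164). Every deep-layer value lay below the 0.93 of Lmo3.

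**Figure D4:**
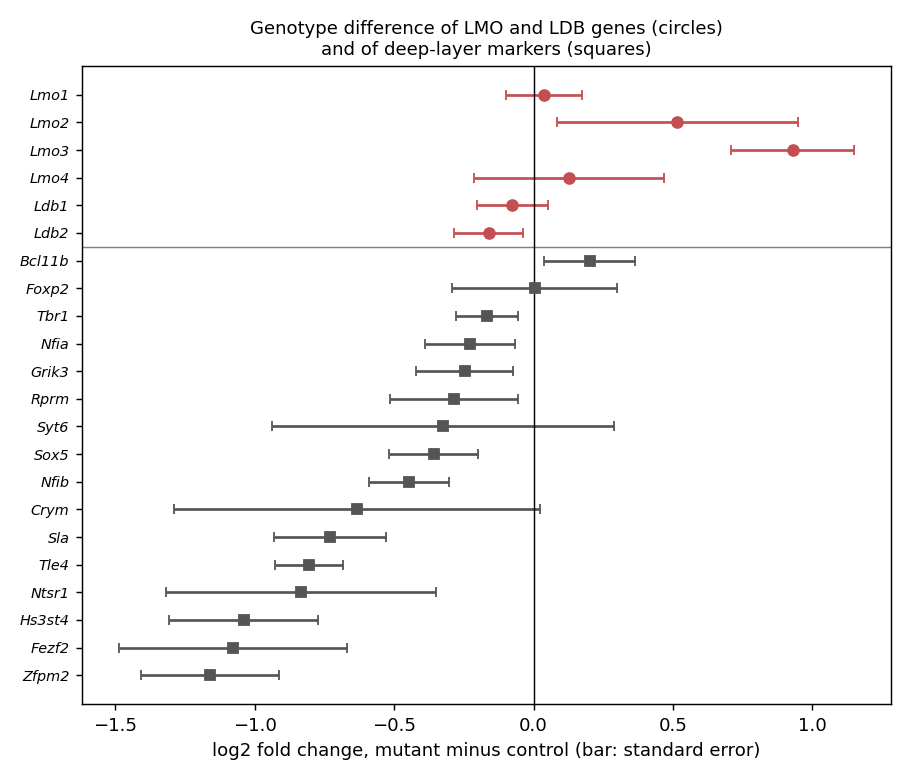
Genotype difference of the 6 LMO and LDB genes (red circles) and of the 16 deep-layer markers (grey squares), as log2 fold change of mutant minus control (horizontal axis) with its standard error. Lmo3 lies farthest to the right at 0.93, and 14 of the 16 markers lie left of 0.

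Litter, which the choice did not use, moved some of these markers. In litter 2, 3 of the 16 were higher and 0 were lower, beside 0.693% of all genes tested called higher. Tbr1 was higher by 0.74 (SE 0.0988, edgeR adjusted p = 0.00125), Sox5 by 0.79 (SE 0.143, adjusted p = 0.0123) and Bcl11b by 0.68 (SE 0.142, adjusted p = 0.0280). The Bcl11b call was lost without any of controls 1, 3, 5 and 6 or mutants 1, 2 and 5 (adjusted p from 0.0534 to 0.125), and the Sox5 call without control 6 (0.0557) or mutant 1 (0.0642). Without both shallowest libraries neither of these 2 passed (0.105 and 0.111), and Sox5 did not pass in females alone (0.0754). Lmo3 differed between litters by 0.04 (SE 0.196, adjusted p = 0.956).

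Markers of other cell types also differed between libraries. The 13 interneuron markers summed to 385 to 861 CPM in mutants and 307 to 819 CPM in controls. Of the 12 that were tested, 11 were positive by genotype and 0 were called. The 13 markers of striatum and ganglionic eminence summed to 122 to 1177 CPM in mutants and 81.9 to 1070 CPM in controls, and all 7 tested were positive with 0 called. The 7 markers of cortical excitatory neurons summed to 1256 to 1790 CPM in mutants and 1728 to 3383 CPM in controls, and all 7 were negative with 0 called. The 8 markers of amygdala and claustrum summed to 1820 to 2768 CPM in mutants and 1428 to 2529 CPM in controls, with 7 positive and 0 called, and their part in the Lmo3 difference was not tested. No marker of these 4 lists was at 0. Genotype was called in 23 of 10678 genes (0.215%), and 49.9% of all genes tested were positive by genotype.

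The interneuron and striatal sums were ordered much like Lmo3 among controls and less so among mutants. Among controls, the 2 with the most Lmo3, control 2 (181 CPM) and control 3 (170 CPM), also had the 2 highest interneuron sums (819 and 742 CPM) and striatal sums (1070 and 606 CPM). The controls with the least Lmo3, control 4 (102 CPM) and control 1 (116 CPM), had the 2 lowest sums in both lists. Among mutants, mutant 1 had 257 CPM of Lmo3 with sums of 793 and 763 CPM, and mutant 5, with the least Lmo3 (155 CPM), had the lowest interneuron sum (385 CPM). Mutant 6 had the highest sums, 861 and 1177 CPM, at 207 CPM of Lmo3. Mutant 4 had the most Lmo3 (378 CPM) and the lowest striatal sum of the mutants (122 CPM). Its interneuron sum of 432 CPM was below those of all other mutants except mutant 5. With a score of the striatal markers as a further term the log2 fold change of Lmo3 was 0.86, and with a score of the interneuron markers it was 0.78, beside 0.93 without either.

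**Figure D5:**
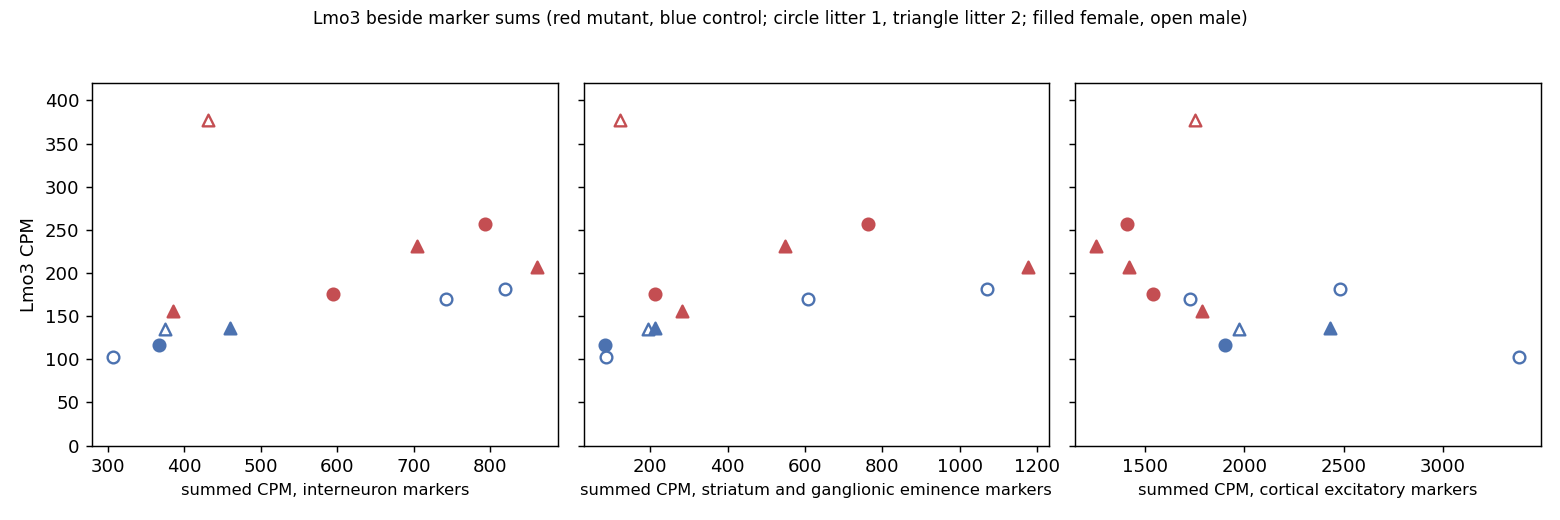
CPM of Lmo3 (vertical axis) against the summed CPM of interneuron, striatal and cortical excitatory markers (horizontal axes) in the 12 libraries, with mutants in red and controls in blue, litter 1 as circles and litter 2 as triangles, and males open. Controls 2 and 3, with the most Lmo3 of the controls, have the highest interneuron and striatal sums of that group. Mutant 4, with the highest Lmo3 level, has an interneuron sum of 432 CPM and a striatal sum of 122 CPM.

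LIM-homeodomain factors bind LDB proteins through the same kind of domain as the LIM-only proteins. Of 12 such genes 4 were tested, 0 were called by genotype, 3 were positive and the median was 0.22. Over all genes tested 0.215% were called and 49.9% were positive. Lhx2, a selector gene of the cortex, averaged 120 ± 45.8 CPM over mutants and 178 ± 56.5 CPM over controls (SD, n = 6 each). By genotype Lhx2 had -0.75 on the log2 scale (SE 0.392, adjusted p = 0.668). Lhx6, a factor of interneurons, had 0.29 (SE 0.169, adjusted p = 0.693). Lhx9 had 0.92 (SE 0.657, adjusted p = 0.793), and it was 0.25 without control 6 and 1.503 without control 1. For Lhx9, 4 mutants lay above every control, and at least 4 did so in 5.16% of all genes tested. Isl1, a striatal and motor neuron factor, had 224 counts over all libraries and was not tested. Per kb, Lhx2 at 33.9 CPM was close to Lmo3 and Ldb1.

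Of 18 genes for other partners of LDB and LMO proteins 12 were tested, 0 were called by genotype, 9 were negative and the median was -0.18. Over all genes tested 0.215% were called and 49.9% were positive. The bHLH gene Tcf4 (124 CPM per kb) and the genes for the LDB-stabilising proteins Ssbp2 (77.6) and Ssbp3 (77.0) had levels between those of Ldb2 and Lmo1. Their log2 fold changes were -0.15 (SE 0.144, adjusted p = 0.855), -0.24 (SE 0.126, adjusted p = 0.618) and -0.21 (SE 0.131, adjusted p = 0.714). Tcf12 had 0.14, and Rlim, a ubiquitin ligase that targets LDB and LMO proteins, had 0.05. The neuronal bHLH genes Nhlh1 and Nhlh2 had -0.38 (SE 0.325) and -0.80 (SE 0.419). Nhlh2 moved to -1.48 without control 6 and to -0.23 without control 1. Nhlh1 ran from -0.60 (without mutant 2) to -0.18 (without control 6) and was 0.14 with no litter and no sex term. Tal1, Tal2, Lyl1, Gata2 and Gata3, which encode the blood partners of Lmo2, had 3 to 12 counts each over all libraries, and Gata1 had 0.

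By litter, 2 of these 12 partner genes were called, in opposite directions, beside 1.31% of all genes tested. Ssbp2 was lower in litter 2 by a log2 difference of -0.62 (SE 0.111, adjusted p = 0.0110) and Ssbp3 was higher by 0.51 (SE 0.114, adjusted p = 0.0319). The Ssbp2 call was lost without control 5 (adjusted p = 0.0781) or control 6 (0.0753). The Ssbp3 call was lost without any of 7 libraries, controls 2, 3 and 5 and mutants 1, 2, 5 and 6, with adjusted p from 0.0514 to 0.147. It was also lost without both shallowest libraries (0.152), in females alone (0.143) and without robust fitting (0.0503), and the Ssbp2 call in females alone (0.206).

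Of 37 other genes with LIM domains 28 were tested, 2 were lower in the mutants, 0 were higher and the median was -0.08. Over all genes tested 0.159% were called lower. Ablim1, an actin-binding LIM protein, fell from a control mean of 205 ± 50.0 CPM to a mutant mean of 95.3 ± 11.5 CPM (SD over 6 libraries each). With terms for litter and sex the log2 fold change of Ablim1 was -0.83 (SE 0.123, edgeR adjusted p = 0.00961), and with neither term it was -1.12. All 6 mutants lay below all controls, which held for 0.927% of genes. The Ablim1 call was lost without control 6 (adjusted p = 0.0546) and without both shallowest libraries (0.103). Lmo7, which shares the LMO name but encodes a larger protein with other domains, had -2.66 (SE 0.357, adjusted p = 0.00961). Its call was lost without control 1 (0.0523), control 6 (0.0621) or mutant 2 (0.0696), without both shallowest libraries (0.102) and with no litter term (0.0941). Lmo7 was also lower in litter 2, by -1.77 on the log2 scale (SE 0.308, adjusted p = 0.0164), a call lost without control 1 (0.0646), control 5 (0.172) or control 6 (0.126).

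Members varied together only in part. Over the 12 libraries, which differ in depth, litter, sex and genotype, log2 CPM of Lmo2 and Lmo4 had r = 0.71 and that of Lmo4 and Ldb1 had r = -0.67. Lmo1 and Lmo3 had r = -0.01, which was -0.68 after litter, sex and genotype were removed. These correlations are descriptions of 12 libraries and of 15 pairs.

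The genes whose levels followed Lmo3 most closely over the 12 libraries, among 6851 compared, were Poldip3 (r = 0.903), Lhfpl3 (0.880), Lrif1 (0.869), Negr1 (0.864) and Dner (0.858). Those closest to Lmo4 were Unc80 (0.922), Dpyd (0.905), Trpc7 (0.890), Carhsp1 (0.889) and Hipk3 (0.884). Smo was closest to Lmo1 (0.956), Bcar1 to Ldb1 (0.958), Klhl29 to Ldb2 (0.918) and Kirrel to Lmo2 (0.887). The next for Lmo1 were Abcd2 and Wwox, for Ldb1 Scrt2 and Bcl7a, for Ldb2 Phactr1 and Rbfox1, and for Lmo2 Yme1l1 and Gmfb. After litter, sex and genotype were removed, the r with Lmo3 was 0.879 for Poldip3 and 0.616 for Lrif1. The median r with Lmo3 over the genes compared was -0.01. All genes named here were picked as the highest r of many over 12 libraries, so the r values are descriptions and were not tested.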

How the data were processed

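Total RNA of cortex was made into 12 ClickSeq libraries with molecular tags, per the labels' protocols. The deposited files hold raw counts per Ensembl gene, to which the authors applied no normalization. The submitters' processing notes name the build mm10, STAR 2.5.2a, HTSeq 0.6.1p1, edgeR 3.20.9, UMI-tools 0.5.3, cutadapt 1.13 and bcl2fastq 2.17, with no roles. The sources used here do not give the annotation, the counting mode or the use of strand. Entries that name no gene, 20.7 to 31.6% of a file's total, were left out.

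Symbols, exon lengths and coordinates came from GENCODE M21. Counts were fitted with edgeR 4.0.16 (filterByExpr with a minimum count of 10, TMM, quasi-likelihood, terms for litter, sex and genotype, 8 residual degrees of freedom). P-values were adjusted by Benjamini-Hochberg over 10678 genes and called under 0.05. CPM used TMM library sizes. The fit was tested on simulated data. Alternatives used DESeq2 1.42.0, limma 3.58.1, other filters and terms, and subsets of libraries.

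The members and all lists were chosen with earlier results of these data known. Named are the members, Arid1a, listed genes called by genotype, the 4 highest per kb among LIM-homeodomain genes and among partners, some fixed genes (Lhx2, Lhx6, Rlim, Ssbp3, Nhlh1, Nhlh2 and 6 deep-layer markers), and the 5 or 3 genes with the highest r of log2 CPM (mean of at least 20 CPM). Genes called by litter and the partners of Lmo2 in blood were named after their values were seen.

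Coding sequences were aligned through their translations with Biopython 1.88. Each gene's transcript was the CCDS transcript that is APPRIS principal, then best supported, then lowest in name. This rule replaced a first choice by hand after an Lmo2 transcript with no CCDS tag aligned poorly: it gave 45.0 to 49.1% identity with the other LIM-only genes, where the transcript used gives 54.6 to 61.1%.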

Additional observations from a re-analysis of the deposited data

Results flagged for a closer look

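Lmo2 stood at 15.2 CPM in mutant 1, far from the other 5 mutants at 3.85 to 6.65 CPM. Tcf12 stood at 590 CPM in mutant 1, below the other mutants at 628 to 649 CPM. Nhlh2 stood at 22.6 CPM in control 1, above the other controls at 7.07 to 11.0 CPM. Each was a sample whose gap to its nearest neighbour took more than 0.625 of the range of its group. These were 3 of 38 groups of 6 libraries checked, and chance gives about 1 in 20. Mutant 1 was the shallowest library.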

How the results depend on the processing

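The log2 fold change of Lmo3 was positive in all 27 alternatives, from 0.60 (without the 2 shallowest libraries) to 1.17 (without control 6). The alternatives refit the same or overlapping libraries and the contrast chose Lmo3, so this sign is a description and no independent support. Ldb2 was negative in 27 (-0.23 to -0.05) and Lmo2 positive in all 26 it had (0.04 to 0.86). Lmo1 changed sign in 1 of 27 (-0.17 to 0.26), Lmo4 in 5 of 27 (-0.18 to 0.41) and Ldb1 in 3 of 27; leaving out 1 library at a time moved Ldb1 from -0.20 to 0.17. The count of 23 genes by genotype was 95 with DESeq2, 261 with no filter, 77 with no sex term, 141 with neither litter nor sex, 43 with the striatal score, 64 in litter 2 alone, 44 in females and 0 without the 2 shallowest libraries (edgeR, 700 at an unadjusted p under 0.05; other tools were not run there). Leaving out 1 library gave 6 (without mutant 2) to 55 (without control 4). Leaving out controls 2 and 6 and mutants 1, 3 and 4 gave 44, 9, 10, 14 and 12. The litter count of 140 was 263 with DESeq2, 593 with no filter, 273 with the striatal score, 32 in females, 45 without the 2 shallowest libraries and 27 to 212 leaving out 1 library. The sex count of 1 was 2 with DESeq2, 76 with no filter, 3 with the interneuron score, 7 in litter 2 alone, 5 without the 2 shallowest libraries and 1 to 17 leaving out 1 library. The count of 0 for genotype by litter was 6 with DESeq2, 75 with no filter, 2 with the striatal score, 1 with the interneuron score, 22 in females and 0 to 1 leaving out 1 library. The sex difference of Lmo3 passed only with no filter (0.47, adjusted p = 0.0406). The cause of these changes was not tested. The planned stricter filter of 5 CPM in 6 libraries kept the same genes as the filter used, so a filter of 10 CPM was added after seeing the data. No paired analysis was possible because replicate numbers only follow the order in the archive. Depth limits Lmo2 most, with 3 to 24 counts a library.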
